A study of Homo sapiens with 3 samples.

Results

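The collagen chain genes were examined in human SK-Mel-28 cells, a melanoma line long kept in culture. They were chosen by gene name: every probe set that the platform annotation gives to 1 of 35 listed collagen genes and to no other gene. This found 94 probe sets for 34 genes, among 54613 probe sets and 19775 named genes in all. COL17A1, the remaining listed gene, was not analysed here. Total RNA was hybridised to 3 Affymetrix Human Genome U133 Plus 2.0 arrays. On 2 of them, MTf siRNA array 1 and array 2 (labelled B1 and B2), the cells were stably transfected with the pSilencer 3.1-H1 neo vector carrying a hairpin siRNA against melanotransferrin (MTf, gene symbol MELTF), a membrane-anchored iron-binding protein. The remaining array held cells of the same line stably transfected with the same vector carrying a scrambled hairpin. Whether the siRNA arrays came from separate clones or cultures is not stated in the labels, and the spread behind each p-value is therefore that of 2 arrays and possibly only technical. The hairpin's target is placed by the sample labels at positions 2048 to 2066 of the MELTF transcript and by the series' design text at 2031 to 2049.

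Collagens are extracellular matrix proteins built from 3 polypeptide chains wound into a triple helix, with glycine at regular steps along each chain. Some types use identical chains and others need different chains, each from its own gene, so that a type can be assembled only where all its partner chains are made. Fibrillar types carry tension in tissues, type IV forms the sheet of basement membranes, type VI forms beaded filaments around cells, and the fibril-associated types (FACIT) sit on the surface of fibrils. In melanoma, collagen is made mainly by fibroblasts of the surrounding tissue, whereas cultures of a melanoma line hold the tumour cells alone.

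Signals are linear probe set values, scaled on each array to a common trimmed mean by the deposited processing. Probe sets bind with different efficiency, so signals were compared between arrays and not between probe sets. Control probe sets for the bacterial gene trp read 7.0 to 97.2, and a collagen signal below 97.2 could not be told apart from that level. Log2 differences are siRNA minus scrambled on the log2(signal + 47.4) scale, on which a dim probe set changes by less than its signals do. Where the dimmer side lay below 97.2 a lower bound ("at least N-fold") is given in their place, from the geometric mean of both siRNA arrays with every signal raised to at least 97.2. Tests are limma's moderated two-sided test with Benjamini-Hochberg adjustment over all 27306 probe sets past a filter on mean signal, and an adjusted p under 0.05 counted as passing. The scrambled array has no replicate and was assumed to vary like the siRNA arrays.

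The labels were checked first. The brightest of 4 MELTF probe sets read 18968 and 18974 on the siRNA arrays and 32608 on the scrambled array (log2 difference -0.78 ± 0.17, SE; limma adjusted p = 0.0699), and the next read 10567 and 11199 on the siRNA arrays and 8284 on the scrambled array (adjusted p = 0.318). A dimmer one was lower on both siRNA arrays (699.7 and 283.6, against 915.2). The last was higher on both (693.7 and 665.7, against 546.4). The MELTF probe sets thus disagreed in direction, and none passed the threshold. All 7 measured melanocyte markers were above 200 on at least 1 array, with a summed signal of 242061.5 and 265631 on the siRNA arrays and 289527.9 on the scrambled array. Within that list TYRP1 fell, with 5022 and 12370.0 on the siRNA arrays and 53204 on the scrambled array (adjusted p = 0.0374), and TYR read 35193 and 37555 on the siRNA arrays and 19988 on the scrambled array (adjusted p = 0.0529). Epithelial markers summed to 8489 and 7445.5 on the siRNA arrays and 16501 on the scrambled array. Most of this was ESRP1, with 5567 and 4656 on the siRNA arrays and 14486 on the scrambled array (adjusted p = 0.0282). In the same list KRT18 was higher on both siRNA arrays (2483 and 2148.5, against 1308 on the scrambled array). KRT8 was lower on both (207.6 and 297.1, against 483.2), so the sum does not describe the list as a whole. The 4 measured leukocyte markers, of 6 listed, summed to 657.7 and 575.9 on the siRNA arrays and 1404 on the scrambled array. Most of this was LCP1, with 477.8 and 384.7 on the siRNA arrays and 1130 on the scrambled array (adjusted p = 0.0804). PTPRC and CD14 of that list were below 97.2 on all arrays. Endothelial markers summed to 1181 and 1538 on the siRNA arrays and 1011 on the scrambled array. Most of this was ENG (752.7 and 807.8 on the siRNA arrays, 493.9 on the scrambled array) and PECAM1 (284.8 and 459.5, against 228.2). VWF was lower on both siRNA arrays (50.2 and 72.4, against 207.0), so this sum does not describe its list either. Ribosomal RNA control probe sets were a median 3.76 times as bright on siRNA array 1 as on the scrambled array, and 1.06 times on siRNA array 2. Median signals were 174.3 and 199.5 on the siRNA arrays and 160.6 on the scrambled array.

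Shown here are 3 stretches of sequence upstream of collagen genes, chosen to show the region before the start for chains described below: the type IV pair COL4A1 and COL4A2, which are read in opposite directions from 1 shared region, the chain with bright signals on all 3 arrays, COL11A1, and COL12A1, of whose 5 probe sets 3 were lower on both siRNA arrays. COL9A3 is not among these. The stretches come from RefSeq (GRCh38.p14), which held an entry for 26 of the 35 listed genes, and stop before the annotated start. Capitals mark GGGCGG (the GC box), CCAAT and TATAA, each searched on both strands, so that CCGCCC and ATTGG are marked too. No marked motif overlaps another.
COL4A1 and COL4A2, the 126 bases between the starts, chr13:110307158-110307283, plus strand: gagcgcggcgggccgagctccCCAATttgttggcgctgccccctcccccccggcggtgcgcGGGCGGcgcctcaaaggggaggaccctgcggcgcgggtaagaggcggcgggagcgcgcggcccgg
COL11A1, the 250 bases before the start, chr1:103108523-103108772, minus strand: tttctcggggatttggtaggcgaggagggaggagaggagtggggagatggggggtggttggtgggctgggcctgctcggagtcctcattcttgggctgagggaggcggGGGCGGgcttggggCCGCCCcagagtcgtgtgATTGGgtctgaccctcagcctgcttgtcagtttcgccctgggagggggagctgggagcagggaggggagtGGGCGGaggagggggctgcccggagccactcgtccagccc
COL12A1, the 250 bases before the start, chr6:75206054-75206303, minus strand: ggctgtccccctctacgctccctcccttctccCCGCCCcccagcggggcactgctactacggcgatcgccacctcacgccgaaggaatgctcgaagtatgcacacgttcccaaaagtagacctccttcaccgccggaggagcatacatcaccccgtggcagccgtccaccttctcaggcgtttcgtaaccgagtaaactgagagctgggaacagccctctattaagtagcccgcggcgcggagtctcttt

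The stretch shared by COL4A1 and COL4A2 is 80.2% G or C and held 1 GC box, 1 CCAAT and 0 TATAA. Among the same 126 bases before the start of 27305 genes, 34.6% held a GC box, 21.9% a CCAAT and 11.2% a TATAA. The COL11A1 stretch held 3 GC boxes, 1 CCAAT and 0 TATAA, and that of COL12A1 held 1 GC box, 0 CCAAT and 0 TATAA. Over 250 bases, 42.3% of all promoters held a GC box, 33.0% a CCAAT and 19.6% a TATAA. These matches describe letters in the windows and were not tested against expression.

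Of the 34 chains, 21 (61.8%) had a probe set above 200 on any array, beside 66.7% of all named genes. By probe set, 32 of 94 (34.0%) were above 200 on any array, beside 54.5% of all probe sets. By array, siRNA array 1 had 10 chains above 200, siRNA array 2 had 20 and the scrambled array had 11. The share of all genes above 200 was not counted by array. Median signals over all probe sets also differed (174.3 and 199.5 on the siRNA arrays, 160.6 on the scrambled array). Just above the level were COL5A1 (highest signal 202.5) and COL15A1 (203.7), and just below it COL4A1 (189.0) and COL8A2 (173.7). The 13 chains that stayed at or under 200 everywhere were COL1A2, COL2A1, COL3A1, COL4A1, COL4A3, COL4A6, COL8A1, COL8A2, COL9A1, COL14A1, COL18A1, COL19A1 and COL21A1. Their 37 probe sets read 2.5 to 189.0, and for COL8A1, COL9A1 and COL21A1 every signal was below the trp control maximum of 97.2. Of the chains that fibroblasts make in bulk for type I and type III fibrils, COL1A2 and COL3A1 were among these 13. COL1A1, the other type I chain, was above 200 in 1 of its 5 probe sets.

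**Figure D1:**
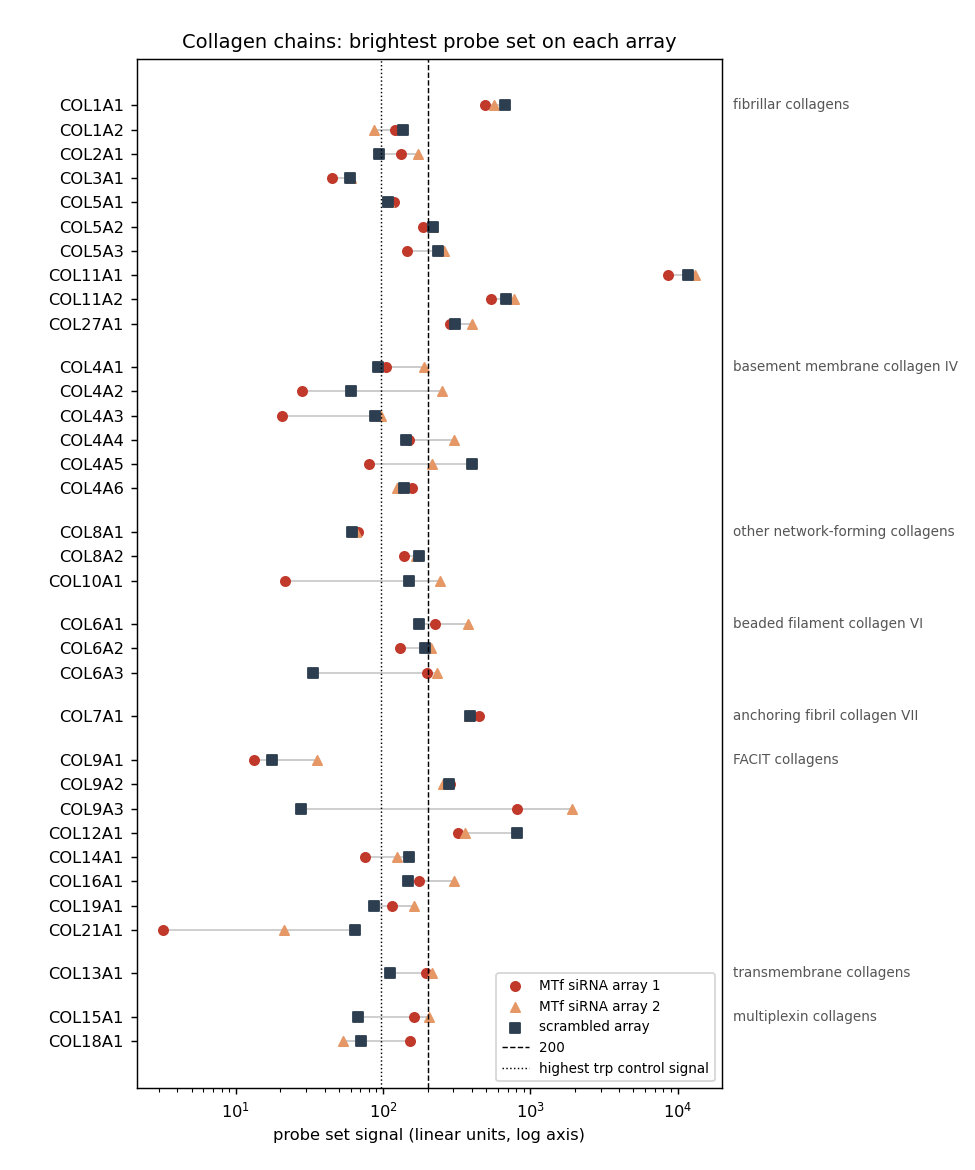
Signal of the brightest probe set of each of the 34 collagen chains (linear units on a log axis) on MTf siRNA array 1 (circles), MTf siRNA array 2 (triangles) and the scrambled array (squares), grouped by the form of collagen. The dashed line marks 200 and the dotted line the highest trp control signal, 97.2. COL9A3 stands out with 813.0 and 1914 on the siRNA arrays and 27.5 on the scrambled array, while COL11A1 is bright on all 3 arrays.

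COL9A3, which encodes the alpha3 chain of type IX collagen, was the 1 collagen gene that passed the threshold. Its only probe set read 813.0 and 1914 on siRNA arrays 1 and 2, against 27.5 on the scrambled array. Both siRNA arrays were far above the scrambled one, and siRNA array 2 was the higher of them. COL9A3 rose at least 12.8-fold (limma adjusted p = 0.0205). With 27.5 on the scrambled array, the probe set passed the filter through its siRNA signals. The filter kept 22 collagen probe sets of 16 genes, or 47.1% of the 34, beside 62.6% of all genes. Of the 22, 1 rose and 0 fell by limma, beside 1.19% higher and 0.905% lower (2.09% in either direction) among all 27306 probe sets tested. At an unadjusted p under 0.05 there were 4 of the 22, beside 20.2% of all. The call was lost without the filter on dim probe sets (adjusted p = 0.119) and without the trend on mean signal (adjusted p = 0.125). In bulk RNA, a change in the number of cells that make a transcript and a change in the amount per cell cannot be told apart.

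Type IX collagen is a FACIT molecule of cartilage and the vitreous, assembled from the chains of COL9A1, COL9A2 and COL9A3. The partners of COL9A3 did not show its pattern. COL9A1 read 13.2 and 35.3 in its brighter probe set on the siRNA arrays and 17.7 on the scrambled array, and its other probe set reached only 16.7, so that all its signals lay below the trp maximum. COL9A2 read 282.0 and 256.7 on the siRNA arrays and 278.2 on the scrambled array (log2 difference -0.041 ± 0.38, SE; limma adjusted p = 0.968), with overlapping groups. Its dimmer probe set read 62.3 and 85.5 on the siRNA arrays and 133.5 on the scrambled array. The summed signal of 9 chondrocyte markers was 1166 and 1251 on the siRNA arrays and 1019 on the scrambled array. Of these, 4 (COMP, EPYC, PRG4 and SOX9) were below 97.2 on all arrays, and ACAN, the aggrecan core protein gene, was the 1 marker above 200 (561.6 and 670.4 on the siRNA arrays, 428.4 on the scrambled array; adjusted p = 0.453).

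COL12A1, a long FACIT chain that forms homotrimers on type I fibrils, was measured by 5 probe sets, and these did not move together. The brightest read 319.7 and 357.8 on the siRNA arrays, against 813.0 on the scrambled array, where both siRNA signals were lower (log2 difference -1.16 ± 0.33, SE; limma adjusted p = 0.112). The second read 91.2 and 139.1 on the siRNA arrays and 505.8 on the scrambled array, at least 4.35-fold lower in siRNA cells (adjusted p = 0.0885). Neither passed the threshold, although both did with arrays centred on their medians (adjusted p = 0.0349 and 0.0147). With that scaling limma called 934 of all 27306 probe sets lower, beside 247 without it. A further probe set also had both siRNA arrays lower, at 136.7 and 154.7 against 201.7 on the scrambled array. In another the order was the opposite, with 214.5 and 378.2 on the siRNA arrays and 136.2 on the scrambled array (log2 difference 0.86 ± 0.46, SE; adjusted p = 0.351). The last reached at most 34.9.

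Among the other FACIT chains, COL16A1 read 175.1 and 302.8 on the siRNA arrays and 147.3 on the scrambled array (adjusted p = 0.592). COL14A1, COL19A1 and COL21A1 reached at most 150.2, 161.0 and 64.7.

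**Figure D2:**
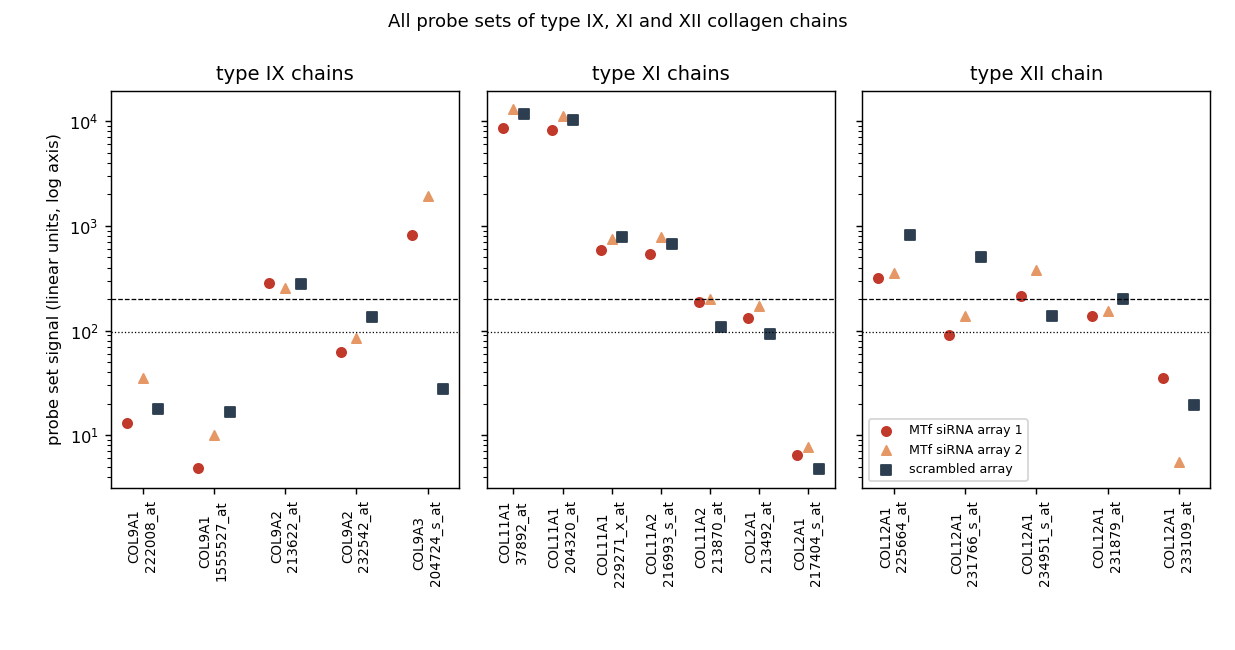
Signals (linear units on a log axis) of all probe sets of type IX chains, type XI chains with COL2A1, which supplies the alpha3 chain of type XI, and the type XII chain, on the MTf siRNA arrays (circles, triangles) and the scrambled array (squares). The dashed line marks 200 and the dotted line 97.2. COL9A3 rises while COL9A1 stays below 97.2, COL11A1 keeps bright signals on every array, and 3 of 5 COL12A1 probe sets are lower on both siRNA arrays while 1 is higher on both.

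Fibrillar collagens gave no call: of their 32 probe sets, 9 were tested and 0 passed limma's threshold in either direction, and none of these had an unadjusted p under 0.05. COL11A1, the alpha1 chain of type XI, which sets fibril diameter in cartilage, read 8616 and 13087 on the siRNA arrays and 11835 on the scrambled array in its brightest probe set. The scrambled signal lay between those of the siRNA arrays (log2 difference -0.16 ± 0.27, SE; limma adjusted p = 0.803). A second COL11A1 probe set had the same order, with 8160 and 11225.5 on the siRNA arrays and 10195 on the scrambled array (adjusted p = 0.880). The third, a dimmer one, was lower on both siRNA arrays (588.7 and 742.2, against 786.2; adjusted p = 0.73). COL11A2, the alpha2 chain, read 540.8 and 778.2 on the siRNA arrays and 678.0 on the scrambled array (adjusted p = 0.947). Its dimmer probe set, which was not tested, read 188.2 and 199.5 on the siRNA arrays and 109.1 on the scrambled array. The alpha3 chain of type XI comes from COL2A1, the type II collagen gene, which read 131.9 and 171.9 on the siRNA arrays and 93.0 on the scrambled array in its brighter probe set and at most 7.7 in the other.

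COL1A1, the alpha1 chain of type I, rests on 1 of its 5 probe sets. That one read 487.9 and 565.1 on the siRNA arrays and 671.9 on the scrambled array (log2 difference -0.33 ± 0.31, SE; limma adjusted p = 0.609). Its identifier carries the suffix x, which marks a probe set that can bind other sequences. The other 4 COL1A1 probe sets never exceeded 81.8, and COL1A2, the partner chain in type I, never exceeded 136.2. COL3A1, the chain of type III, reached 136.4 in its highest signal. A level of type I collagen therefore cannot be read from these probe sets. The summed signal of 10 fibroblast markers was 7613 and 8305.5 on the siRNA arrays and 2774 on the scrambled array, of which LUM, a small proteoglycan gene, made up 4850 and 4841 on the siRNA arrays and 598.6 on the scrambled array (log2 difference 2.92 ± 0.24, SE; adjusted p = 0.00719). The part of these markers in the collagen signals was not tested. In the same list TWIST1 was also higher on both siRNA arrays (1832 and 2022, against 958.0 on the scrambled array; limma adjusted p = 0.0989). THY1 was lower on both (216.8 and 250.2, against 256.4). For DCN, FBLN1 and FAP the scrambled signal lay between the siRNA signals, so the sum does not describe the list as a whole. PDGFRB, PDPN and S100A4 of that list were below 97.2 on all arrays.

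The chains of type V, which nucleate fibrils, were dim. COL5A2 read 186.4 and 217.5 on the siRNA arrays and 218.2 on the scrambled array (adjusted p = 0.932). COL5A1 was above 200 on siRNA array 1 alone, and only in a probe set that read 202.5 and 37.7 on the siRNA arrays and 52.4 on the scrambled array. The 2 probe sets of COL5A3 disagreed. The brighter read 145.3 and 260.6 on the siRNA arrays and 237.4 on the scrambled array (adjusted p = 0.840), and the other read 144.3 and 205.7 on the siRNA arrays and 29.4 on the scrambled array, at least 1.77-fold higher in siRNA cells but below the filter and not tested. COL27A1, a fibrillar chain of cartilage, read 284.8 and 398.7 on the siRNA arrays and 308.5 on the scrambled array (adjusted p = 0.906). A second COL27A1 probe set was higher on both siRNA arrays (175.1 and 384.7, against 164.1; limma adjusted p = 0.598).

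Basement membrane collagen IV exists as 3 pairs of neighbouring genes, each pair read outward from a shared region. In the pair COL4A1 and COL4A2, which encode the ubiquitous chains, COL4A1 read 105.0 and 189.0 on the siRNA arrays and 92.4 on the scrambled array. COL4A2 read 28.1 and 249.5 on the siRNA arrays and 60.1 on the scrambled array in one probe set, and 24.2 and 219.4 on the siRNA arrays and 40.5 on the scrambled array in the other. Both COL4A2 probe sets were thus above 200 on siRNA array 2 alone, and on the other 2 arrays all their signals lay below 97.2. Neither gene passed the filter, so neither was tested.

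In the pair COL4A3 and COL4A4, which encode chains of kidney and lung basement membranes, COL4A4 read 149.0 and 304.5 on the siRNA arrays and 143.6 on the scrambled array (limma adjusted p = 0.669), and the 7 probe sets of COL4A3 reached at most 136.3. In the X-linked pair COL4A5 and COL4A6, COL4A5 read 79.8 and 215.3 on the siRNA arrays, against 398.7 on the scrambled array. Both siRNA signals were lower, at least 2.76-fold by the geometric mean of the siRNA arrays, but the difference did not pass (adjusted p = 0.239; unadjusted p = 0.0465). COL4A6 reached at most 155.7. Of the other network-forming chains, COL10A1 of hypertrophic cartilage read 21.6 and 242.8 on the siRNA arrays and 150.5 on the scrambled array, and COL8A1 and COL8A2 stayed at or under 173.7.

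Type VI collagen is made of the alpha1, alpha2 and alpha3 chains. COL6A3, the largest of them, read 197.6 and 232.3 on the siRNA arrays and 33.2 on the scrambled array in its only probe set. The siRNA arrays lay close together and above the scrambled array, at least 2.20-fold higher, but the probe set did not pass the filter and was not tested. Without a filter its limma adjusted p was 0.292. COL6A2 read 130.8 and 211.8 on the siRNA arrays and 193.3 on the scrambled array (adjusted p = 0.891). COL6A1 was covered by 8 probe sets that contradicted each other: 4 had both siRNA arrays higher and 3 had both lower. Of the 8, however, 4 lay below 97.2 on all arrays, where no change could be measured. The brightest COL6A1 probe set read 223.5 and 376.5 on the siRNA arrays and 175.5 on the scrambled array (adjusted p = 0.498). Another read 71.2 and 54.5 on the siRNA arrays and 224.4 on the scrambled array. A further one was also lower on both siRNA arrays (49.8 and 11.3, against 183.4). In the remaining one the scrambled signal lay between the siRNA signals (28.9 and 270.3, against 111.0). No direction can be given for COL6A1.

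COL7A1, the anchoring fibril chain that ties the epidermal basement membrane to the dermis, read 448.0 and 381.2 on the siRNA arrays and 388.4 on the scrambled array, with overlapping groups (log2 difference 0.080 ± 0.34, SE; limma adjusted p = 0.928). Its second probe set read 274.3 and 209.5 on the siRNA arrays and 273.7 on the scrambled array. The transmembrane chain COL13A1 read 196.3 and 213.6 on the siRNA arrays and 110.9 on the scrambled array (adjusted p = 0.453), while its other probe sets had both siRNA arrays lower. Among the multiplexins, whose C-terminal fragments are released from basement membranes, COL15A1 read 161.5 and 203.7 on the siRNA arrays and 67.3 on the scrambled array, at least 1.87-fold higher. It did not pass the filter. COL18A1, the source of endostatin, reached at most 152.6.

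**Figure D3:**
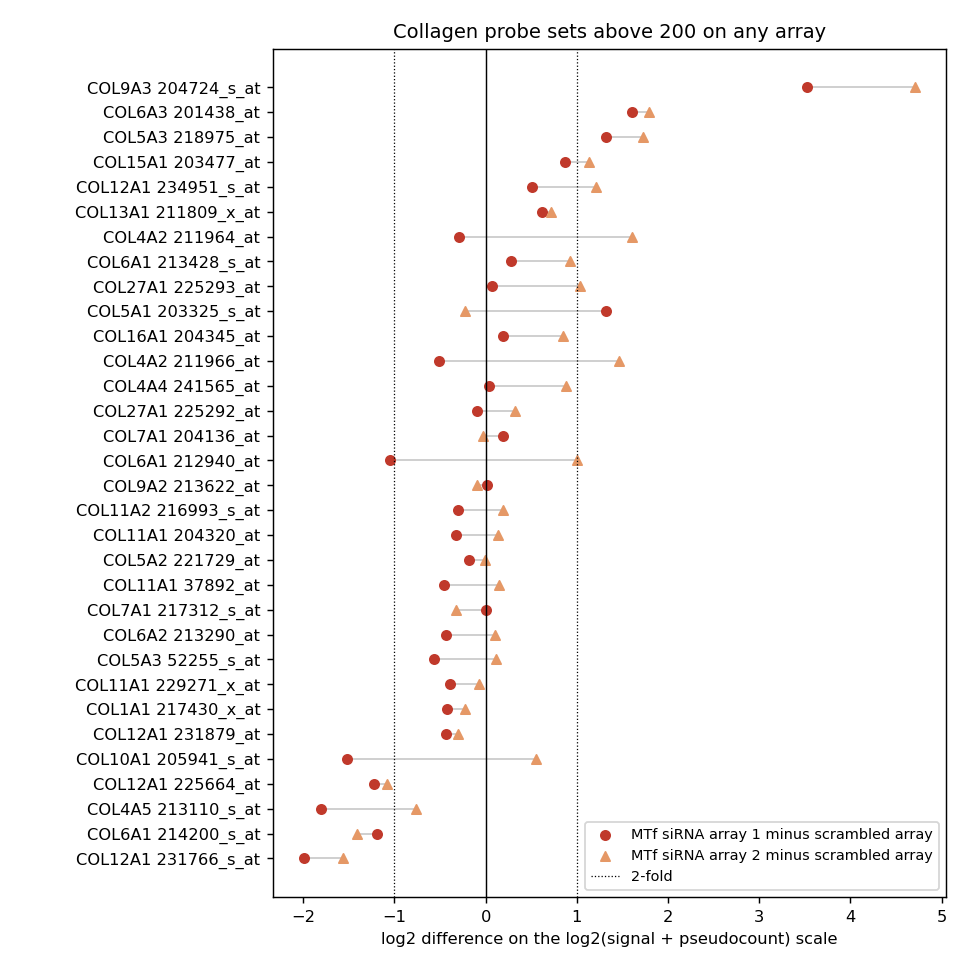
Log2 difference from the scrambled array, on the log2(signal + 47.4) scale, of MTf siRNA array 1 (circles) and array 2 (triangles) for the 32 collagen probe sets above 200 on any array, sorted by their mean. Dotted lines mark 2-fold, and values of probe sets with a signal below 97.2 depend on the pseudocount. COL9A3 is higher on both siRNA arrays, while 14 of the 32 have the scrambled array between the siRNA arrays or equal to one of them.

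Over the whole family, 37 of 94 probe sets (39.4%) had both siRNA arrays higher than the scrambled array, beside 42.3% of all probe sets, and 25 (26.6%) had both lower, beside 29.9%. The brightest probe set had both siRNA arrays higher in 12 of 34 genes (35.3%), beside 42.9% of all genes, and both lower in 8 (23.5%), beside 31.3%. The median log2 difference of the 34 genes was 0.027 (-0.10 on siRNA array 1 and 0.11 on siRNA array 2), beside 0.075 over all 19775 genes. With arrays centred on their medians it was -0.14 beside -0.094 over all genes, and with quantile normalization -0.11 beside 0.008, so that its sign rests on the scaling. At least 2-fold on both siRNA arrays, 4 of 94 probe sets (4.26%) were higher and 4 lower, beside 3.68% higher and 2.19% lower among all 54613. The higher ones belong to COL9A3, COL6A3, COL5A3 and COL6A1, and the lower ones to COL12A1 and COL6A1, each with 2 probe sets. These counts rest on the pseudocount: all 3 signals of the COL6A1 probe set counted as higher lay below 97.2, and the lower bounds for COL5A3 and for 1 of the COL6A1 probe sets counted as lower were 1.77-fold and 1.89-fold. With signals raised to 97.2, 2 probe sets were higher and 4 lower. Without siRNA array 1 the higher count was 17, and without siRNA array 2 the lower count was 9. Both siRNA differences use the same scrambled array.

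The siRNA arrays themselves differed for many chains. In 27 of 34 genes (79.4%) the brightest probe set read higher on siRNA array 2 than on siRNA array 1, beside 57.8% of all genes. Of the 32 collagen probe sets above 200 the count was also 27 (84.4%), beside 53.7% of all probe sets above 200. COL10A1, COL4A2 and COL9A3 are examples whose values were given above. The array with the lower collagen signals is the one whose ribosomal control probe sets were brighter, and the part of this in the difference was not tested.

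Chains become collagen only after hydroxylation, folding, secretion and cleavage, and 70 of 72 listed genes for these steps, for collagen receptors, breakdown and regulation were measured. Over all 6 lists, 2 genes rose and 0 fell, of 54 past the filter, beside 1.5% higher and 1.14% lower among all 12386 genes tested (2.64% in either direction), and 22 had an unadjusted p under 0.05, beside 22.9% of all. The 2 were PPIB and SEC24D. PPIB, cyclophilin B, the prolyl isomerase of the collagen prolyl 3-hydroxylation complex, read 28103 and 30549 on the siRNA arrays and 15222 on the scrambled array (log2 difference 0.94 ± 0.18, SE; limma adjusted p = 0.0483). Its second probe set rose as well, with 15368 and 16811 on the siRNA arrays and 7669 on the scrambled array (adjusted p = 0.0446). SEC24D, a cargo subunit of the COPII coat that carries procollagen out of the endoplasmic reticulum, read 1009 and 1317 on the siRNA arrays and 315.5 on the scrambled array (1.73 ± 0.31, SE; adjusted p = 0.0436). Neither call held without the filter, without the trend or with a pseudocount of 200.

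Of 14 measured genes for prolyl and lysyl modification, 12 were tested. Of these, 1 rose, 0 fell and 7 had an unadjusted p under 0.05, beside 22.9% of all genes tested. Both siRNA arrays were higher in 10 of the 14 and lower in 2, P3H2 and PLOD2, beside 42.9% higher and 31.3% lower among all genes. P4HA3, which is among the 10, was below 97.2 on all arrays. P3H2, which is among the 7, read 2142.5 and 2815 on the siRNA arrays and 4177 on the scrambled array (limma adjusted p = 0.168). P4HA1 and P4HA2 encode catalytic subunits of the prolyl 4-hydroxylase that makes the triple helix stable. P4HA1 read 6486 and 7823 on the siRNA arrays and 3288 on the scrambled array (log2 difference 1.10 ± 0.23, SE; limma adjusted p = 0.0589). P4HA2 read 7405 and 8518 on the siRNA arrays and 3731 on the scrambled array (1.08 ± 0.22, SE; adjusted p = 0.0559). Both siRNA arrays were higher in both genes, just short of the threshold.

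Among 11 genes for chaperones and secretion, SEC23A, the COPII partner of SEC24D, read 5390 and 6016 on the siRNA arrays and 2679 on the scrambled array (adjusted p = 0.0604), and the isomerase gene FKBP14 read 1738 and 2203 on the siRNA arrays and 969.8 on the scrambled array (adjusted p = 0.111). In the cleavage and cross-linking list 6 of 13 measured genes were tested and 0 passed. Of the 6, 2 had an unadjusted p under 0.05, beside 22.9% of all genes tested. The procollagen C-proteinase gene BMP1 read 885.2 and 946.9 on the siRNA arrays and 406.8 on the scrambled array (adjusted p = 0.102). LOX, the lysyl oxidase gene, read 1990 and 2313 on the siRNA arrays and 3726.5 on the scrambled array (adjusted p = 0.137).

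No gene passed limma's threshold among collagen receptors (0 of 7 tested, 4 at an unadjusted p under 0.05), breakdown genes (0 of 8, 4) or regulators (0 of 11, 2). Among all genes tested, 2.64% passed and 22.9% had an unadjusted p under 0.05. ITGA2, the alpha2 subunit of a collagen-binding integrin, read 447.5 and 831.9 on the siRNA arrays and 204.7 on the scrambled array (adjusted p = 0.13). DDR2, a receptor kinase for fibrillar collagen, read 3708 and 4183.5 on the siRNA arrays and 6014 on the scrambled array (adjusted p = 0.191). The membrane collagenase gene MMP14 read 2035 and 2312 on the siRNA arrays and 1173 on the scrambled array (adjusted p = 0.123), and PRCP, a proline-specific carboxypeptidase gene, read 8568 and 8611 on the siRNA arrays and 5213 on the scrambled array (adjusted p = 0.113). SOX5, a partner of SOX9 at cartilage collagen genes, read 1731 and 2263 on the siRNA arrays and 1084 on the scrambled array (adjusted p = 0.156), and SMAD4 of TGF-beta signalling read 3015 and 2581 on the siRNA arrays and 1766 on the scrambled array (adjusted p = 0.205).

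The median log2 difference was 0.46 in the modification list, 0.34 in the chaperone and secretion list and 0.30 in the cleavage and cross-linking list, beside 0.075 over all genes and 0.097 over genes past the filter. On siRNA arrays 1 and 2 taken singly, it was 0.42 and 0.67 in the modification list and 0.36 and 0.34 in the chaperone and secretion list. In the cleavage and cross-linking list it was -0.13 and 0.44, so its sign differed between the siRNA arrays. Together the 38 genes of these 3 lists had a median of 0.36, or 0.19 with arrays centred on their medians and 0.33 with quantile normalization, and 0.54 without siRNA array 1. Medians of the receptor, breakdown and regulator lists were 0.093, 0.19 and 0.27. That of the receptors was -0.077 with arrays centred and -0.095 with quantile normalization, and without either it was -0.20 on siRNA array 1 and 0.44 on siRNA array 2.

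**Figure D4:**
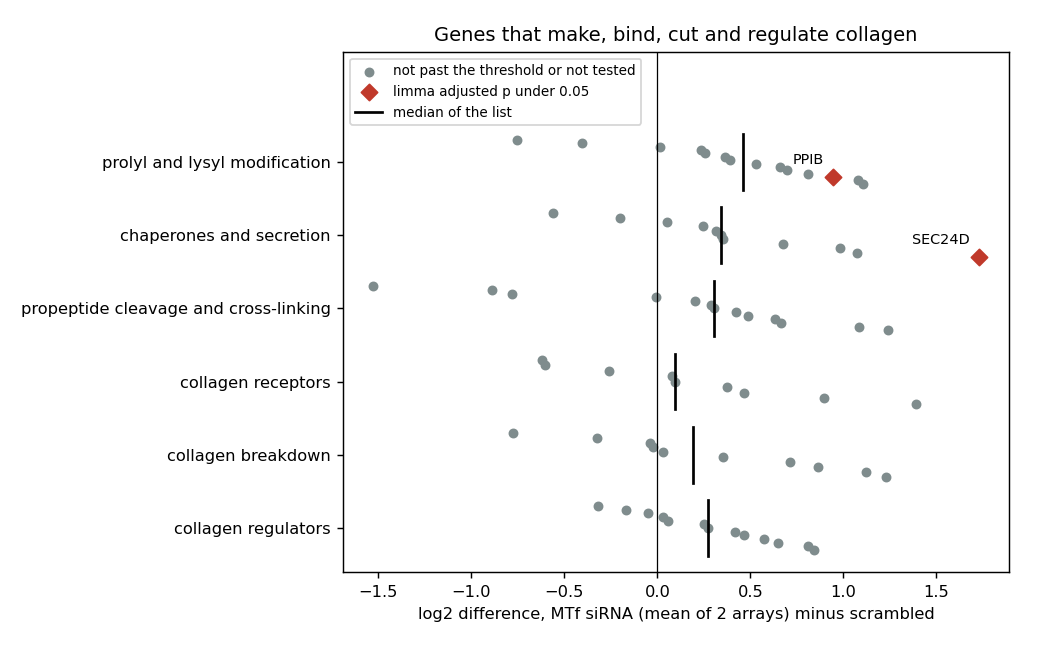
Log2 difference (mean of the 2 MTf siRNA arrays minus the scrambled array, log2(signal + 47.4) scale) of the brightest probe set of 70 genes in 6 lists. Diamonds mark genes past limma's threshold (PPIB and SEC24D), circles all other genes, and black bars the median of each list, which is 0.46 for prolyl and lysyl modification and 0.093 for receptors.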

How the data were processed

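Per the submitters' processing notes, the deposited intensity values came from GCOS 1.3. They are probe set signals on a linear scale, 1 per probe set and array, and the software's settings were not recorded in the labels. The mean of each array after trimming 2% at each end was 1000.12, 1000.13 and 1000.14. There were 0 value columns of other samples. Of 54675 probe sets, 62 controls were left out. By the platform annotation, 41091 probe sets belong to 1 gene, 1801 to several and 11721 to none, and names were used for the first kind alone. The symbols did not change against the current RefSeq gene table, and 54 identifiers had no match there.

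Signals were analysed as log2(signal + 47.4), the 25th percentile of all signals, with limma 3.58.1 in R 4.3.3 (lmFit, eBayes with a trend), on 27306 probe sets whose mean exceeded the median, 7.74 in log2 units. The fit had 1 residual degree of freedom, to which moderation added 6.36. In simulated data, false calls exceeded the share that the threshold allows under both ways of drawing the variances. The excess was slight with variances drawn from the fitted prior and large with the moderated variances as fitted. Adjusted p-values, including those of the genes called here, may therefore be too small. A gene was represented by the probe set with the highest mean. Counts and medians over the 34 chains used all of them. The members, gene lists, named-gene rule and alternatives were chosen with earlier results of these data known. The rule named all members, each listed gene past the threshold and, per list, the 2 others with the smallest p. P3H2 and PLOD2 were named besides, as genes of the modification list that were lower on both siRNA arrays. The number of arrays limits the precision. Alternatives covered the pseudocount, a floor, the filter, scaling, moderation, the probe set of a gene, and each siRNA array left out.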

Additional observations from a re-analysis of the deposited data

How the results depend on the processing

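No paired analysis was possible because the scrambled array carries no number and has no second sample. COL9A3 was higher under all 12 alternatives, by an amount that depends on the pseudocount, and was called in 7 of 9 that tested it, the exceptions being no filter and no trend. These fits reuse the same 3 arrays and are not independent. The 7 each kept a filter on mean signal, which COL9A3 passed through its siRNA signals. The filter at the 75th percentile did not keep it, which left 0 collagen probe sets and genes called higher, as did no filter and no trend. With arrays centred, 2 collagen probe sets and 1 gene, all COL12A1, were called lower, the median of the collagen genes was -0.143 and that of the biosynthesis lists 0.186. Collagen probe sets at least 2-fold different on both arrays numbered 9 higher and 7 lower with a pseudocount of 16, 1 and 1 with 200, and 2 higher with signals raised to the trp maximum. With 1 siRNA array left out they ranged from 6 to 17 higher and from 4 to 9 lower, as values with no test. Medians then ranged from -0.101 to 0.11 for collagen genes and from 0.312 to 0.539 for the biosynthesis lists. Of the pathway genes, 0 were called higher with a pseudocount of 200, signals raised to the trp maximum, no filter, the filter at the 75th percentile, or no trend, and 1 with quantile normalization. Above 400 on any array there were 6 chains. Over the whole array, 324 probe sets were called higher and 247 lower, 1 and 0 without the filter or without the trend, and 6 and 3 with the 75th percentile. With arrays centred they were 594 higher and 934 lower. The cause of these shifts was not tested. Where all 3 signals of a probe set lay below the trp maximum, no change could be measured.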
